A study of Homo sapiens with 8 samples.

Results

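The genes described here are long intergenic noncoding RNAs of human cells that carry a LINC symbol, a number given by the naming committee to a noncoding gene whose function is mostly not known. Members were taken from the deposited count table of assembled transcripts: transcripts whose gene name is LINC followed by digits and which the assembly itself names for that gene were added up per Ensembl gene, and genes with 20 or more counts over the 8 libraries were kept. This left 103 genes, under 100 symbols, of 349 named LINC genes with reads and of 29937 genes and loci with reads in the series. They hold 588 of the 96614 assembled transcripts. LINC00685 is counted once for chromosome X and again for its pseudoautosomal copy on chromosome Y. These entries share a run of 428 bases, so reads could be divided between them. Members were thus chosen by their total count, so their totals are a description and carry no test. Just inside the limit stood LINC00842 and LINC01060 with 20 counts, and just outside it LINC00882, LINC01176, LINC02955, LINC01918 and LINC01018 with 19 counts.

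The study sequenced polyadenylated RNA of the embryonic stem cell line H1, an established human line, as long reads on a PacBio instrument, with 2 repeats of each of 4 groups. Human pluripotent stem cells (hPSC) were kept in mTeSR1 on Matrigel, and the other groups were made from them in culture and collected after 5 days. Endoderm medium held WNT3A and Activin A. Mesoderm medium held VEGF, BMP4 and bFGF, with Activin A on the opening day, and ectoderm medium held the inhibitors A83-01, PNU-74654 and Dorsomorphin. The labels do not say that repeats were separate cultures, so every p-value measures only the spread between these repeats. All groups come from 1 cell line, and the hPSC libraries are shared by all comparisons against hPSC. The hPSC repeats agreed least: log2 levels of tested genes correlated at 0.873 between them, against 0.946 to 0.967 in the layers.

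Long noncoding RNAs are transcribed and usually spliced and polyadenylated like messenger RNAs but encode no known protein. As a class they are known for low abundance, few exons and expression limited to certain cell types, and some regulate neighbouring genes or nuclear structure.

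Deep libraries weigh on the choice of members. The library totals were 519306 and 562042 counts for hPSC, 1180888 and 967206 for ectoderm, 585558 and 586183 for endoderm and 531106 and 503840 for mesoderm, so ectoderm supplied 39.5% of all counts. Of the markers listed for each layer, 5 of 6 ectoderm markers had reads in ectoderm (SOX1 was at 0). All 7 endoderm markers had reads in endoderm, and 5 of 7 mesoderm markers in mesoderm (MIXL1 and FOXF1 were at 0). Reads did not always mean a rise over hPSC in the test described below. KDR had 1 and 1 counts in mesoderm against 57 and 44 in hPSC and was called lower, and TBXT had 1 and 0 in mesoderm. HAND1, BMP4 and TBX3 were called higher in mesoderm, and PAX6, LHX5, SIX3 and DLK1 in ectoderm. OTX2 was not called in ectoderm and had its highest counts, 241 and 238, in endoderm. The summed level of 6 amnion and trophoblast markers was 5116 to 5647 CPM (counts scaled by the library total) in mesoderm and 2.07 to 22.2 CPM in the other groups. That of 3 fibroblast markers was 3995 to 4658 CPM in mesoderm and 121 to 377 CPM elsewhere. Their part in the mesoderm values below was not tested. In bulk RNA, fewer cells of a type and less RNA per cell cannot be told apart.

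LINC members were a small fraction of the RNA in every group. Of all counts they made up 0.185% and 0.190% for hPSC, 0.200% and 0.198% for ectoderm, 0.158% and 0.148% for endoderm, 0.114% and 0.103% for mesoderm. The groups did not overlap, and mesoderm was lowest. Counting reference-matching transcripts only, hPSC averaged 0.0871%, ectoderm 0.0553%, endoderm 0.0797% and mesoderm 0.0413%, so ectoderm then stood below hPSC and endoderm. The total per member had a median of 42 counts, 60 members had fewer than 50 counts, and the 10 members with most counts held 42.3% of the 9215 member counts. Reads were seen in all 4 groups for 84 members and in all 8 libraries for 53.

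Ectoderm had the highest mean CPM for 47 of the 103 members, mesoderm for 22, hPSC for 20 and endoderm for 14. These shares follow those of all 16267 genes with 20 or more counts, where ectoderm was highest for 43.8%, mesoderm for 23.2%, hPSC for 17.9% and endoderm for 15.1%. Both libraries of the highest group stood above the other 6 libraries in 62 members, against 58.6% of all such genes. Both sets of shares lay near each other.

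**Figure D1:**
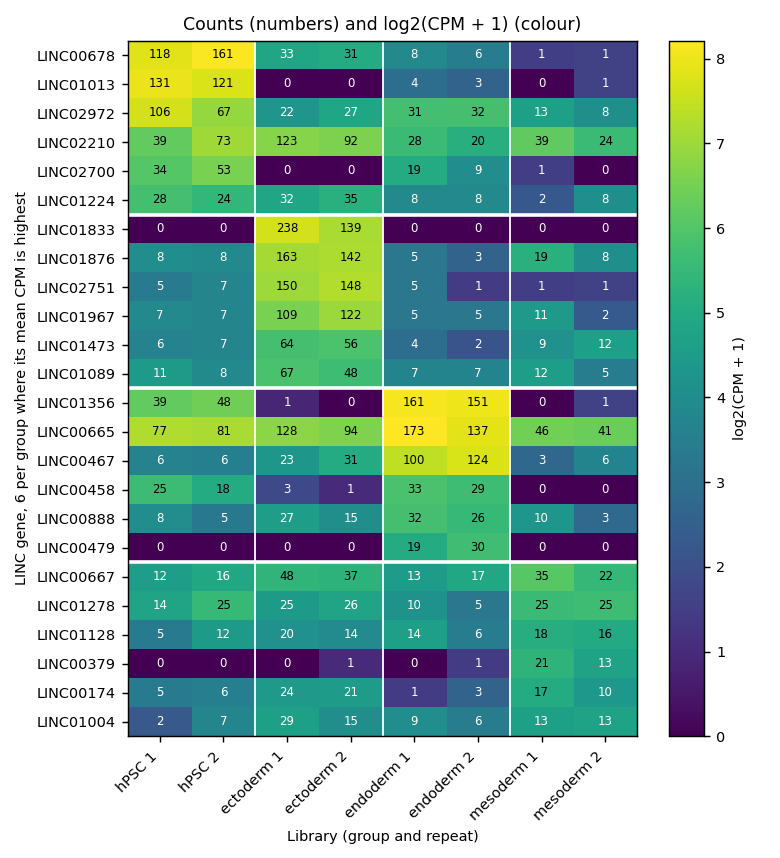
Counts (numbers) and log2(CPM + 1) (colour) of 24 LINC genes, 6 for each group in which their mean CPM is highest, in the 8 libraries (columns, group and repeat). LINC01833 has 238 and 139 counts in the ectoderm libraries and 0 in the others, while LINC00665 has 41 to 173 counts in all 8.

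Differences between groups were tested with edgeR's quasi-likelihood test over 10847 genes, with p-values adjusted over all of them by the Benjamini-Hochberg method. Of the 103 members 40 passed the filter on low counts, and 63 did not, all with 70 or fewer counts. Of the 40, 25 reach the filter level of 17.4 CPM in both libraries of at most 1 group. Of all tested genes 28.1% do so. Many tested members thus passed through the group where they are high, so the counts of calls below describe the tested members and are no measure of LINC genes in general. At an adjusted p under 0.05, 33 of the 40 were called in at least 1 of 6 comparisons, and 7 in none, where 16.2% of all tested genes were called in none. The share of members called in none, 17.5%, lay near it. The 7 were LINC00667, LINC02987, LINC01004, LINC00205, LINC02893, LINC01012 and 1 of the genes named LINC03006 (ENSG00000290926.1).

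A first set was highest in the undifferentiated cells. LINC00678, LINC02972, LINC01013, LINC01224 and LINC02700 were called higher in hPSC than in each layer, 5 of the tested members, where 3.55% of tested genes had this pattern. LINC00678, which lies on chromosome 11 (chr11:27612748-27634581, minus strand), had counts of 118 and 161 for hPSC, 33 and 31 for ectoderm, 8 and 6 for endoderm and 1 and 1 for mesoderm. Every hPSC library was above every other library. The fitted log2 fold change against hPSC was -3.54 ± 0.33 (SE) in ectoderm (edgeR adjusted p = 1.61e-06) and -4.10 ± 0.40 in endoderm (adjusted p = 3.37e-06). With 2 counts in mesoderm, the pooled CPM was 134-fold higher in hPSC there, with a 95% counting interval from 36.6 to 1108.

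LINC01013 (chr6:131901818-131926872, plus strand) was read almost only in hPSC. It had counts of 131 and 121 for hPSC, 0 and 0 for ectoderm, 4 and 3 for endoderm and 0 and 1 for mesoderm. The pooled CPM in hPSC was at least 167-fold higher than in ectoderm, taking 3 counts over the group as the limit that a count of 0 allows. It was 39.0-fold higher than in endoderm (edgeR log2 fold change -4.92 ± 0.44, adjusted p = 2.77e-06). Its nearest tested neighbour was CCN2, which encodes a secreted matrix protein and lies 21303 bases away on the opposite strand. CCN2 had 184 and 5 counts in the hPSC repeats and was called in no layer against hPSC.

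LINC02972 (chr12:8785765-8798981, plus strand) kept reads in every library. The hPSC repeats gave 106 and 67 counts, ectoderm 22 and 27, endoderm 31 and 32, mesoderm 13 and 8. The hPSC libraries stood above all others, and the fall was smaller in endoderm (log2 -1.22 ± 0.33, edgeR adjusted p = 0.0117) than in ectoderm (log2 -3.19 ± 0.34, adjusted p = 6.52e-06). The endoderm level was itself above ectoderm (ectoderm against endoderm, log2 -1.97 ± 0.36, adjusted p = 0.00025). The endoderm call against hPSC was lost with DESeq2 and without either endoderm repeat.

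LINC02700 (chr11:94641897-94663090, plus strand) had counts of 34 and 53 for hPSC, 0 and 0 for ectoderm, 19 and 9 for endoderm and 1 and 0 for mesoderm. Pooled CPM in hPSC was at least 57.6-fold higher than in ectoderm and 3.37-fold higher than in endoderm (edgeR adjusted p = 0.0251 for endoderm). LINC01224 (chr19:23396389-23416071, minus strand) lies 918 bases from ZNF91, a zinc finger gene that represses retrotransposons. It had 28 and 24 counts in hPSC, 32 and 35 in the deeper ectoderm libraries, 8 and 8 in endoderm, and 2 and 8 in mesoderm. As CPM the hPSC mean was 48.3 ± 7.93 (SD, n = 2) and the ectoderm mean 31.6 ± 6.43, so the ectoderm fall was modest (log2 -1.03 ± 0.37, edgeR adjusted p = 0.031). ZNF91 moved the other way, from 3 and 3 counts in hPSC to 61 and 35 in ectoderm (log2 2.54, edgeR adjusted p = 0.00141). The ectoderm and endoderm calls of LINC01224 were lost with DESeq2 and without any 1 of the ectoderm or endoderm libraries. The endoderm call of LINC02700 was lost with DESeq2 and without hPSC repeat 2, endoderm repeat 2 or either ectoderm library. LINC02210 had its highest mean in hPSC too, but its hPSC libraries, at 39 and 73 counts, did not stand apart from ectoderm, at 123 and 92.

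A second set was higher in hPSC and endoderm than in ectoderm and mesoderm. LINC00665, LINC01356, LINC02972, LINC01013, LINC02700, LINC00458 and LINC02575 were each called higher in both hPSC and endoderm than in both ectoderm and mesoderm, 7 of the 40 tested members, where 7.47% of tested genes were. LINC01013 is in it by 7 counts in endoderm against 1 in mesoderm, a call lost with DESeq2, with reference-matching or spliced transcripts only, and without either endoderm library or mesoderm repeat 1. Pluripotency markers moved with this set only in part. The summed level of 8 of them was 3617 to 3815 CPM for hPSC and 1742 to 2049 for endoderm. It was 1324 to 1754 for ectoderm, which overlaps endoderm, and 335 to 357 for mesoderm. POU5F1, NANOG, TDGF1 and PRDM14 had higher CPM in both endoderm libraries than in both ectoderm libraries. SOX2, LIN28A, DPPA4 and L1TD1 had higher CPM in both ectoderm libraries than in both endoderm libraries. All 8 had reads in hPSC and ectoderm, and SOX2 alone was at 0 in endoderm and mesoderm. NANOG, a pluripotency factor, had 92 and 65 counts in endoderm and was not called against hPSC there. Their part in the member values was not tested. LINC01356 (chr1:112820170-112849789, minus strand) had counts of 39 and 48 for hPSC, 161 and 151 for endoderm, 1 and 0 for ectoderm and 0 and 1 for mesoderm. The endoderm libraries were the highest and the hPSC libraries next, with no overlap between the groups. It rose in endoderm (log2 2.05 ± 0.34, edgeR adjusted p = 0.000406), and its pooled CPM in hPSC was 173-fold that of ectoderm (95% counting interval 30.2 to 6904) and 83.3-fold that of mesoderm (14.6 to 3326). The nearest tested neighbour, SLC16A1, a monocarboxylate transporter gene 62058 bases away, was called lower in endoderm (log2 -0.99).

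LINC00458, on chromosome 13 (chr13:54098068-54132866, minus strand), is known as a transcript of human pluripotent cells. It had counts of 25 and 18 for hPSC and 33 and 29 for endoderm, against 3 and 1 for ectoderm and 0 and 0 for mesoderm. The difference between endoderm and hPSC did not pass the test (log2 0.75 ± 0.35, edgeR adjusted p = 0.126). Pooled CPM was 21.4-fold higher in hPSC than in ectoderm (adjusted p = 1.69e-05) and at least 13.7-fold higher than in mesoderm. LINC02575 had counts of 10 and 5 for hPSC, 14 and 10 for endoderm, 3 and 4 for ectoderm and 0 and 1 for mesoderm. It was called lower in ectoderm (log2 -2.43 ± 0.65, edgeR adjusted p = 0.0065) and in mesoderm (adjusted p = 0.00756), and lies opposite the gene TSPEAR. Both calls were lost with DESeq2 and without hPSC repeat 1, the ectoderm call also without either ectoderm library and the mesoderm call without mesoderm repeat 1.

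LINC00665, also in this set, was read in every library at 41 or more counts. The gene lies among zinc finger genes on chromosome 19 (chr19:36312586-36331761, minus strand), and had the highest total of the members. The hPSC repeats gave 77 and 81 counts, ectoderm 128 and 94, endoderm 173 and 137, mesoderm 46 and 41. As CPM, hPSC averaged 146 ± 2.94, ectoderm 103 ± 7.92, endoderm 265 ± 43.6 and mesoderm 84.0 ± 3.70 (SD, n = 2), and the groups did not overlap. It rose in endoderm (log2 1.18 ± 0.29, edgeR adjusted p = 0.00737) and fell in ectoderm (log2 -0.93 ± 0.29, adjusted p = 0.0159) and mesoderm (log2 -1.04 ± 0.31, adjusted p = 0.0172). Both falls were lost when the spread was estimated from the 4 libraries compared or when 1 library of the layer was left out. LINC00665 and LINC01535 share a run of 195 bases, so reads could be divided between them.

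Endoderm had a set of its own. LINC00665, LINC01356, LINC00467, LINC00888, LINC01993, LINC00479 and LINC01002 were called higher in endoderm than in each other group, 7 of the tested members, where 9.14% of tested genes were. LINC00467 (chr1:211382777-211435333, plus strand) had counts of 100 and 124 for endoderm, 23 and 31 for ectoderm, 6 and 6 for hPSC and 3 and 6 for mesoderm. The endoderm libraries were above all others, and pooled CPM was 17.2-fold higher than in hPSC (edgeR log2 4.43 ± 0.42, adjusted p = 2.83e-06). LINC00479 had 19 and 30 counts in endoderm and 0 in all 6 other libraries, which is at least 15.1-fold higher than hPSC in pooled CPM. The call was lost with DESeq2.

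LINC01993 had 19 and 29 counts in endoderm and 0 to 3 in every other library. LINC00888 had counts of 32 and 26 for endoderm, 27 and 15 for ectoderm, 8 and 5 for hPSC and 10 and 3 for mesoderm, a 4.12-fold rise in pooled CPM over hPSC (edgeR log2 2.37 ± 0.47, adjusted p = 0.00182). LINC01002 had 14 and 12 counts in endoderm and 0 to 5 elsewhere, but it has long identical stretches with LINC00265 (a run of 101 bases), so its reads are uncertain. Its call against hPSC was lost with DESeq2 and without either endoderm library. LINC00261, a noncoding gene beside FOXA2 known from definitive endoderm, had 8 and 4 counts in endoderm and 0 in the other 6 libraries. Its 12 counts kept it out of the members, as did the 12 counts of LINC00511. No counts were found for LINC00461, LINC00599, LINC01551 and LINC00473.

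Ectoderm gave the longest list. LINC01833, LINC01876, LINC02751, LINC01967, LINC01089, LINC01473, LINC01572, LINC00630, LINC02253 and LINC01515 were called higher in ectoderm than in each other group, 10 of the tested members, where 10.4% of tested genes were. LINC01833, LINC01876, LINC02751 and LINC01967 lost none of these calls in the alternatives that gave them a value, while each of the other 6 lost at least 1 with DESeq2. For LINC01876, LINC02751 and LINC01967 no assembled transcript matched the reference. The alternative with reference-matching transcripts only therefore gave them no value. LINC01833 (chr2:44921077-44939430, minus strand) had 238 and 139 counts in ectoderm and 0 in the other 6 libraries. Pooled CPM in ectoderm was at least 63.3-fold higher than in hPSC, at least 68.5-fold higher than in endoderm and at least 60.5-fold higher than in mesoderm. It lies 2272 bases from SIX3, a homeobox gene of the anterior neural plate and eye, on the opposite strand. SIX3 had counts of 133 and 88 for ectoderm and 0 and 1 for endoderm, and 0 in the 4 hPSC and mesoderm libraries, so both genes of the pair were read almost only in ectoderm.

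LINC02751 (chr11:15552708-15706295, plus strand) had counts of 150 and 148 for ectoderm, 5 and 7 for hPSC, 5 and 1 for endoderm and 1 and 1 for mesoderm. Its rise over hPSC was 12.5-fold in pooled CPM (edgeR log2 3.21 ± 0.43, adjusted p = 4.29e-05). It was also called lower in mesoderm than in hPSC (adjusted p = 0.0282), a call from 2 counts against 12 that was lost with DESeq2 and without the second hPSC library or either mesoderm library. The pooled ratio there was 5.74 with a 95% counting interval from 1.28 to 52.8.

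LINC01876 (chr2:155984227-156254950, minus strand) had counts of 163 and 142 for ectoderm, 8 and 8 for hPSC, 5 and 3 for endoderm and 19 and 8 for mesoderm. Ectoderm was 9.60-fold above hPSC in pooled CPM (edgeR log2 2.83 ± 0.40, adjusted p = 7.01e-05) and 5.44-fold above mesoderm. LINC01967 (chr3:27902454-28059750, minus strand) had counts of 109 and 122 for ectoderm, 7 and 7 for hPSC, 5 and 5 for endoderm and 11 and 2 for mesoderm. Its nearest tested neighbour, EOMES, a T-box factor of mesendoderm 179743 bases away, had 70 and 56 counts in endoderm and 0 in the other 6 libraries, so the neighbours were high in different layers.

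The other ectoderm members rose less. LINC01473 had 64 and 56 counts in ectoderm and 2 to 12 in other libraries (edgeR log2 1.78 ± 0.41 against hPSC, adjusted p = 0.00232), and overlaps ZC3H15 on the opposite strand, which was also called higher (log2 1.43). The LINC01473 call against mesoderm was lost with DESeq2 and without either ectoderm library or mesoderm repeat 1. LINC01089 had 67 and 48 counts in ectoderm and 5 to 12 elsewhere. It passed against hPSC (log2 1.17 ± 0.40, edgeR adjusted p = 0.0226) but not with DESeq2 or without the ectoderm repeat 1. Its calls against endoderm and mesoderm were lost in those same settings, the first also without either endoderm library and the other also without mesoderm repeat 2. LINC01572, LINC00630 and LINC02253 lost their call against mesoderm with DESeq2 and without any 1 of the ectoderm and mesoderm libraries. Against hPSC, the LINC00630 call was also lost with DESeq2, with the replicate block, with only the 4 libraries compared and without any 1 of the hPSC and ectoderm libraries. LINC01515 lost its calls against hPSC and mesoderm with DESeq2, with the replicate block and without either mesoderm library, and that against hPSC also without either hPSC library. Whether strand was used in counting is not stated, so reads of overlapping genes may be shared. Of the 103 members, 18 overlap a protein-coding gene of GENCODE 29, 7 on the same strand and 12 on the opposite strand.

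In mesoderm 1 member stood alone. LINC00379 (chr13:91119604-91202097, minus strand) had counts of 21 and 13 for mesoderm, 0 and 0 for hPSC, 0 and 1 for ectoderm and 0 and 1 for endoderm. Its pooled CPM was at least 11.8-fold higher than in hPSC and 70.6-fold higher than in ectoderm (95% counting interval 11.8 to 2868). It was the single tested member called higher in mesoderm than in each other group, where 5.58% of tested genes were. The nearest tested neighbour was GPC5, a glypican gene 196488 bases away on the opposite strand, with 26 and 24 counts in mesoderm and 0 to 2 elsewhere (edgeR log2 3.42 against hPSC, adjusted p = 0.000349). LINC00667, with counts of 35 and 22 for mesoderm and 12 and 16 for hPSC, did not pass (log2 0.84 ± 0.40, edgeR adjusted p = 0.112). LINC01278, with 25 and 25 counts in mesoderm, was above endoderm (log2 -1.34 ± 0.48 for endoderm against mesoderm, edgeR adjusted p = 0.0309) but not called against hPSC (adjusted p = 0.764). The call against endoderm was lost with DESeq2 and without endoderm repeat 2 or either mesoderm library.

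Per comparison, 10 tested members were called higher and 11 lower in ectoderm than in hPSC, against 23.8% and 24.8% of tested genes. In endoderm 7 were higher and 6 lower, against 13.4% and 13.7%. In mesoderm 1 was higher and 11 were lower, against 17.0% and 18.2%. Between layers, 13 were higher and 13 lower in ectoderm than in endoderm (33.1% and 29.9% of tested genes), 12 higher and 3 lower in ectoderm than in mesoderm (18.1% and 17.3%), and 14 higher and 3 lower in endoderm than in mesoderm (23.2% and 23.9%). No tested member was called by edgeR higher than hPSC in all 3 layers (0 at an unadjusted p under 0.05), where 1.01% of tested genes were. None was higher in both ectoderm and mesoderm than in both hPSC and endoderm (0 at an unadjusted p under 0.05), where 5.94% were. DESeq2 called 6 higher and 7 lower in ectoderm against hPSC. Single libraries moved several counts by over 1.5 times: the members lower in ectoderm numbered 7 without ectoderm repeat 1, those lower in mesoderm 7 without mesoderm repeat 1, and those lower in endoderm 2 without endoderm repeat 2, 3 without endoderm repeat 1 or either ectoderm library, and 10 without hPSC repeat 1.

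**Figure D2:**
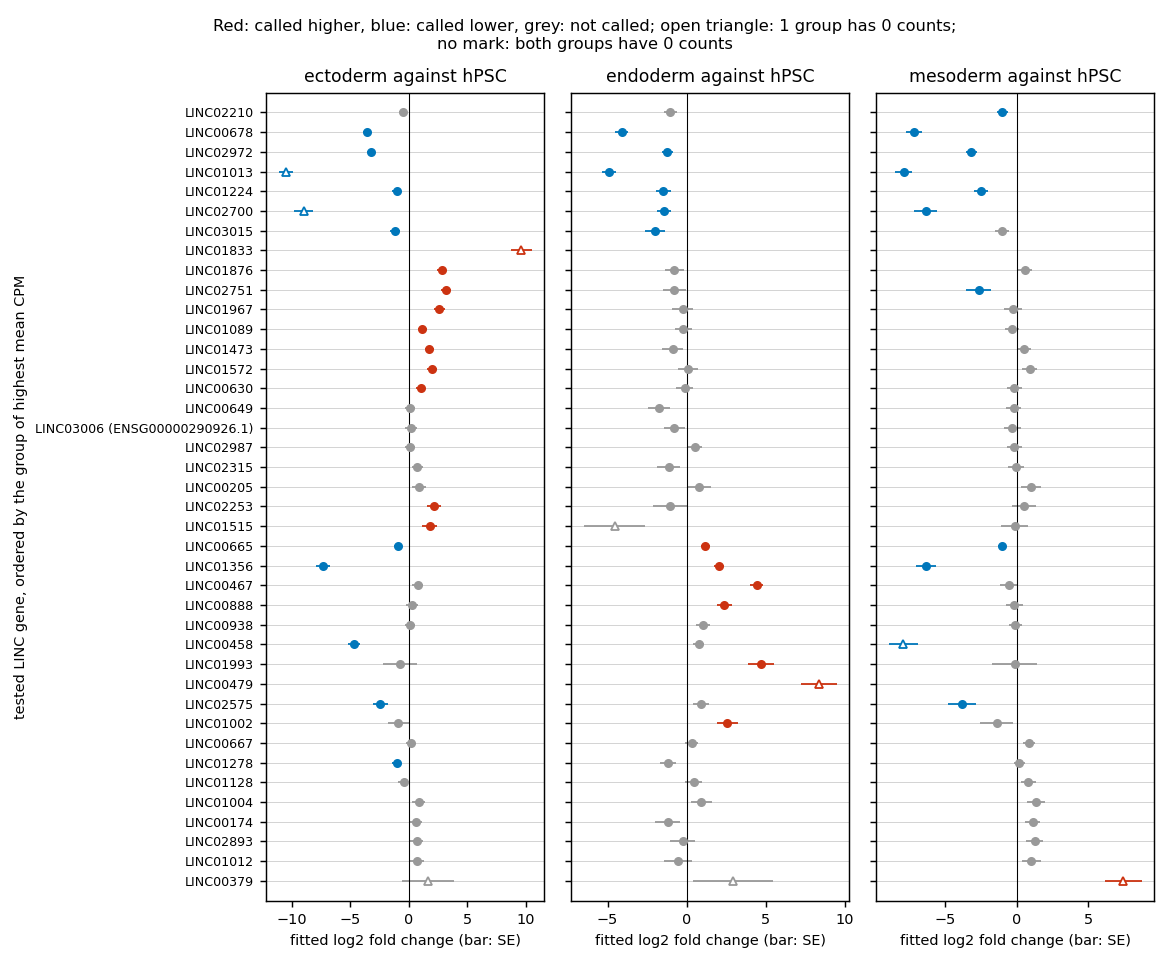
Fitted log2 fold change (point, with its standard error as a bar) of the 40 tested LINC genes in each layer against hPSC, ordered by the group of highest mean CPM. In the mesoderm panel 1 gene, LINC00379, is called higher and 11 are called lower; triangles rest on a group with 0 counts and are no measure of size.

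Neighbouring genes were compared over all tested members. The nearest tested gene lay at a median distance of 38584 bases from a tested member, against 6912 bases over all tested named genes. Over the layers against hPSC, 46 pairs had a called member, and in 16 of them (34.8%) the neighbour was called in the same direction, against 30.4% of 11596 such pairs over all genes. Within 100 kb it was 9 of 32 pairs (28.1%), against 30.6%. LINC01833 and SIX3 rose together in ectoderm. LINC00678 fell there while LIN7C, a scaffold protein gene 105979 bases away, rose from 27 and 20 counts in hPSC to 363 and 334 (edgeR log2 2.49, adjusted p = 2.97e-05).

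The transcript structure of the members differed from that of protein-coding genes. Transcripts carry a class code for how they compare with the reference annotation: an equals sign for the same intron chain, j for sharing a splice junction, k for containing a reference transcript, m and n for retained introns, and e for a single exon that runs into an intron. Transcripts matching the reference carried 38.0% of member counts and 84.9% of the counts of 12119 protein-coding genes with 20 or more counts. Single-exon transcripts carried 21.3% against 3.54%, and those with retained introns 13.4% against 2.13%. The most read transcript had a median of 2 exons in members and 9 in protein-coding genes, and a median length of 5166 against 3590 bases. It had a single exon in 39 members (37.9%, against 3.59%). These lengths are of assembled transcripts, and the reads behind them were not analysed here.

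The median number of transcripts per gene was 4 in both sets. Members ranged from 7 genes with 1 transcript to LINC02751 with 23, LINC02210 and LINC01224 with 21 each, and LINC00667 with 20. In 31 members no transcript matched the reference, and in 8 all counts were in matching ones. Of the member transcripts, 73.5% came from 1 of the 4 group assemblies, against 61.6% for protein-coding genes. Total counts differ between the sets, with a median of 42 in members and 170 in protein-coding genes, and their part in these shares was not tested.

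Single members sat at opposite ends. LINC01356 was compact: 1 transcript of 3 exons and 805 bases, matching the reference, carried 93.0% of its counts. LINC00665 had 16 transcripts, of which 15 matched and carried 93.3% of counts. LINC01967 had no matching transcript, 79.9% of its counts were in single-exon transcripts, and the most read one was a block of 25518 bases inside the gene. The most read transcript of LINC01876 was the longest of all members, at 27337 bases in 2 exons, and that of LINC00630 had the most exons, 12 in 13398 bases. LINC00630 (chrX:102769147-102916989, plus strand) had 49 and 48 counts in ectoderm and 5 to 11 elsewhere.

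**Figure D3:**
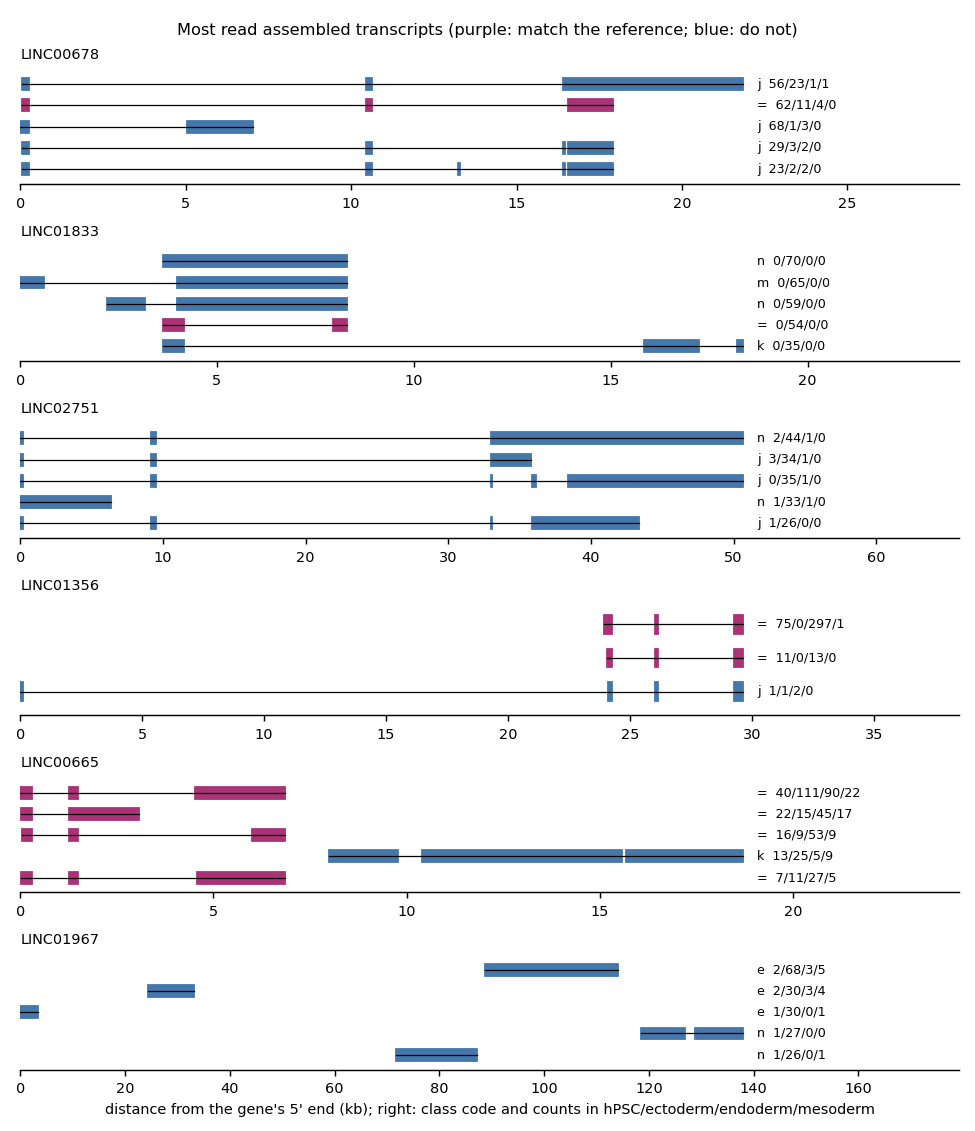
Exons (boxes) and introns (lines) of up to 5 most read transcripts of LINC00678, LINC01833, LINC02751, LINC01356, LINC00665 and LINC01967, in kb from the 5′ end of each gene, with the class code and the counts in hPSC, ectoderm, endoderm and mesoderm at the right. LINC01356 is read almost wholly as 3 short exons, while LINC01967 consists of separate long blocks.

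Intron-containing and single-exon RNA of the members was not evenly spread over the groups. Single-exon transcripts made up 27.5% and 29.8% of member counts for ectoderm and 22.9% and 25.2% for mesoderm, against 11.8% and 12.3% for hPSC and 10.7% and 15.0% for endoderm. Ectoderm and mesoderm lay above hPSC and endoderm without overlap. In protein-coding genes the same share was lower in ectoderm (3.09% and 2.99%) and mesoderm (2.74% and 2.97%) than in hPSC (3.62% and 5.69%) and endoderm (3.60% and 4.30%). Without LINC01967, LINC00938 and LINC01572, the 3 members with most single-exon counts, the pooled shares were 23.3% for ectoderm and 21.1% for mesoderm, against 10.4% for hPSC and 10.5% for endoderm. Retained-intron transcripts held 17.31% and 18.35% of member counts for ectoderm and 12.87% and 13.65% for mesoderm. They held 8.524% and 8.161% for hPSC and 8.541% and 9.469% for endoderm. In protein-coding genes the retained-intron share was higher in ectoderm (2.757% and 2.977%) and mesoderm (2.11% and 2.228%) too. For hPSC it was 1.595% and 1.299% in those genes, and for endoderm 1.416% and 1.429%.

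The single-exon share also differed within some genes. Of 10 members with 20 or more counts in both ectoderm and hPSC, it was higher in ectoderm in 6, lower in 1 and equal in 3. The rise was small in LINC01224 (29.85% against 28.85%), LINC01278 (7.84% against 5.13%) and LINC00649 (30% against 25%). For LINC00667 the share was 30.6% in ectoderm and 14.3% in hPSC, and for LINC03015 53.6% and 20.8%. In LINC03006 (ENSG00000290926.1) it was 20.6% and 85.0%. The mean length of the transcript behind a member count was 7053 and 7567 bases in ectoderm and 4255 and 4253 in hPSC. Lengths moved in the same direction in protein-coding genes, at 4076 and 4290 bases in ectoderm and 3155 and 2968 in hPSC. MALAT1, a nuclear noncoding RNA with no LINC symbol, moved with these shares: its counts were 3421 and 3425 in the ectoderm repeats and 1074 and 1104 in the mesoderm repeats, against 70 to 80 in all 4 hPSC and endoderm libraries. The part of either in the member values was not tested.

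**Figure D4:**
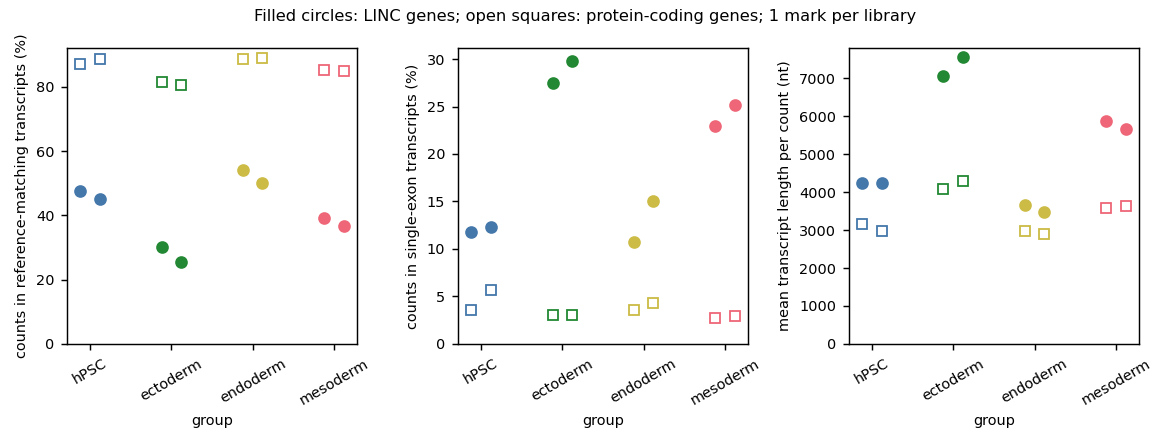
Share of counts in reference-matching transcripts, share in single-exon transcripts and mean transcript length per count, for LINC genes (filled circles) and protein-coding genes (open squares), 1 mark per library, by group. The LINC single-exon share is 27.5% and 29.8% in ectoderm and 11.8% and 12.3% in hPSC, and the protein-coding share is below 6% throughout.

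LINC00467 was read as different RNA in different layers. In endoderm 3 spliced transcripts of 4 exons, of 3366, 2203 and 2501 bases, held 105, 54 and 51 of 224 counts, and a single-exon transcript of 13264 bases held 6. In ectoderm that single-exon transcript held 38 of 54 counts (17 of 23 in repeat 1 and 21 of 31 in repeat 2), and the 3 spliced transcripts held 0, 2 and 0. In mesoderm it held 5 of 9. The endoderm libraries and the ectoderm libraries therefore did not overlap in this share, though endoderm was not tested against ectoderm. The single-exon transcript begins downstream of the start of the spliced forms, and counts of the gene in ectoderm are mostly its counts.

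Transcript choice was tested against hPSC with edgeR's diffSpliceDGE in 2629 genes with at least 2 tested transcripts, of which 6 are members: LINC00467, LINC01013, LINC00665, LINC02972, LINC00678 and LINC01833. None was called in any layer, where 5.63%, 5.06% and 7.00% of tested genes were called in ectoderm, endoderm and mesoderm. LINC01833 had 0 counts in hPSC, endoderm and mesoderm, and LINC01013 had 0 in ectoderm and 1 in mesoderm. Comparisons with such a group could not show a change of choice for these genes, whatever the RNA. Of the 6 members, 3 had an unadjusted p under 0.05 in ectoderm, and none in the other layers. With Simes-combined p-values none was called either. The single-exon transcript of LINC00467 did not pass the filter on low counts. The filtered test therefore did not include it and does not bear on the difference described above. Without the filter, 94 members could be tested and LINC00467 and LINC00678 were called in ectoderm.

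The nearest to a call was LINC00665 in ectoderm (diffSpliceDGE adjusted p = 0.0507). Its most read transcript, 3 exons and 2869 bases long, held 111 of 222 counts in ectoderm against 40 of 158 in hPSC, 90 of 310 in endoderm and 22 of 87 in mesoderm. For LINC00678 (adjusted p = 0.0877), a transcript of 2 exons and 2243 bases held 68 of 279 counts in hPSC and 1 of 64 in ectoderm. A 3-exon form of 5819 bases held 56 of 279 counts in hPSC and 23 of 64 in ectoderm.

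**Figure D5:**
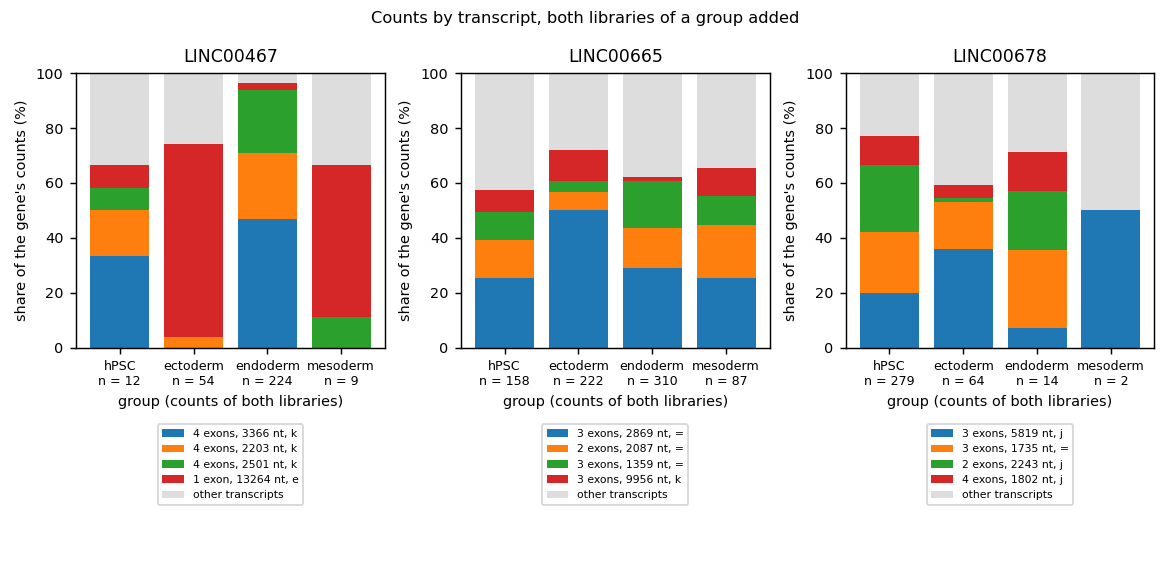
Share of counts by transcript for LINC00467, LINC00665 and LINC00678 in each group, both libraries added, with the number of counts under each bar; colours stand for the 4 most read transcripts of each gene and grey for the others. The single-exon form of LINC00467 holds 38 of 54 counts in ectoderm and 6 of 224 in endoderm.

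Transcripts of some members started close to a reference start. A RefSeq promoter (GRCh38.p14, 250 bases before to 50 after the start) on the same chromosome and strand was found for 63 members, and 39 had a transcript starting within 100 bases of its start. All 23 transcripts of LINC02751 and all 21 of LINC01224 do, and these are shown because so many different transcripts start within that distance. Capitals mark the bases from the most read assembled start onward, which accounts for 268 of 318 counts in LINC02751 (chr11:15552523-15552822, plus strand) and 117 of 145 in LINC01224 (chr19:23416025-23416324, minus strand).
LINC02751: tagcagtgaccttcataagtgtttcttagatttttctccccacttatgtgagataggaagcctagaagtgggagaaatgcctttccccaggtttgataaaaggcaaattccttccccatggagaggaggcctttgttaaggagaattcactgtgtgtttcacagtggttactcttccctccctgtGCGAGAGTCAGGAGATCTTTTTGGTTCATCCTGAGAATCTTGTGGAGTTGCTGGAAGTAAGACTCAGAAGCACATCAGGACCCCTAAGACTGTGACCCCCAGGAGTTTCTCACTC
LINC01224: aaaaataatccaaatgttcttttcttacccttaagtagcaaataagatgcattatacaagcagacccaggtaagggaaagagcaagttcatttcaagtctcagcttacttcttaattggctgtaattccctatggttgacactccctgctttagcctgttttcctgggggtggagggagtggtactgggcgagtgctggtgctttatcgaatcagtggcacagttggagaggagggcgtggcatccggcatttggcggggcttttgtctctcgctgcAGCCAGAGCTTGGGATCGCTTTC

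The G and C content of these windows is 46.3% in LINC02751 and 48.0% in LINC01224, against a median of 55.3% over the 63 members and 58.7% over all 35116 promoters. Over the 39 members with a transcript starting within 100 bases the median was 61.7%. Short motifs were searched on both strands of the windows. The POU octamer ATGCAAAT was in 1 of 63 member promoters and in 1.77% of all, the SOX motif ACAATG in 5 and in 10.8%, the GATA motif AGATAA in 7 and in 10.3%, and TATAAA in 6 and in 11.5%. Neither printed promoter holds any of them. A polyadenylation signal AATAAA or ATTAAA lay in the last 50 bases of the reference transcript for 29 of 56 member transcripts compared (51.8%). These were transcripts matching the reference, and a gene can have several. Over all genes it was 56.2% of 14813 such transcripts.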

How the data were processed

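Long-read RNA libraries of H1 cells, 2 repeats in each of 4 groups, were grouped by their titles. The authors deposited counts of reads per assembled transcript for a combined assembly, with no normalization; the submitters' processing notes name minimap2, StringTie and GRCh38, and versions are not given in the sources used here. For both endoderm libraries a unit check here entered the deposited unit under expected counts, though the values are whole raw counts and needed no rounding. The check misread the column names, and these values were deposited as counts like those of the other libraries. Members and lists were chosen with earlier results of these data known. Another 186 transcripts listed under LINC genes only by position were left out. Coordinates are those of the deposited assembly: all 46 multi-exon member transcripts compared have the same introns in GENCODE 29 on GRCh38. How shared reads were counted is not stated.

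The test on gene counts was that of edgeR 4.0.16 under R 4.3.3 (TMM, filterByExpr with the groups and min.count 10, glmQLFit and glmQLFTest over all 8 libraries, two-sided, Benjamini-Hochberg threshold 0.05). An SE is the fold change divided by the square root of F. A group at 0 was set to a floor of 3 counts, and ratios with 1 to 3 counts have a 95% exact conditional binomial interval; both cover counting error only. With 200 genes of 10847 changed 4-fold in simulated data, the ectoderm comparison recovered 73.0%, endoderm 65.5% and mesoderm 75.0%, and 6.83% to 8.39% of calls were false. The changed genes were drawn from all tested genes, so these rates are not rates for LINC members. In the real data a larger part of genes was called (23.8% higher and 24.8% lower in ectoderm against hPSC). Alternatives were DESeq2 1.42.0, RLE scaling, no filter, a replicate block, other transcript sets and leaving out each library. Named genes were the 6 members with highest mean CPM per group, those with most transcripts, the longest or most exons, those nearest the count limit, 8 LINC genes known from the literature, and the nearest tested neighbours; others were named after their values were seen.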

Additional observations from a re-analysis of the deposited data

Results flagged for a closer look

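LINC00665 and LINC01356 were called higher than hPSC in endoderm and lower than hPSC in ectoderm and mesoderm, and the layers differed in edgeR's own test between them. For LINC00665 the log2 difference was -2.12 for ectoderm against endoderm (adjusted p = 2.24e-05) and 2.22 for endoderm against mesoderm (adjusted p = 4.81e-05). For LINC01356 the fitted values were -9.37 (edgeR adjusted p = 3.25e-08) and 8.41 (adjusted p = 1.74e-07), which rest on 1 count each in ectoderm and mesoderm and are no measure of size.

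LINC02751 was called higher than hPSC in ectoderm and lower in mesoderm, with a fitted log2 difference of 5.85 between the layers (edgeR adjusted p = 2.72e-06) from 2 counts in mesoderm.

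Transcripts listed under a LINC gene by position only, which entered no comparison, held 2742 counts. There were 186 of them under 91 genes, 119 inside introns and 62 antisense. The hPSC repeats had 449 and 477 CPM of them, ectoderm 734 and 859, endoderm 166 and 157, mesoderm 273 and 415. The most read were at LINC02315, with 106 and 96 counts in ectoderm and 0 to 43 elsewhere. Next came LINC01572, with 83 and 88 counts in ectoderm and 3 to 31 elsewhere, and LINC02523, with 76 and 71 counts in hPSC and 1 to 6 elsewhere.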

How the results depend on the processing

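Numbers of called members are given as higher and lower. DESeq2 moved ectoderm against hPSC to 6 and 7, the lower calls of endoderm against hPSC to 2, the higher calls of ectoderm against endoderm to 8, ectoderm against mesoderm to 5 and 1, and the lower calls of endoderm against mesoderm to 1. With reference-matching transcripts only, 12 members were tested, and the numbers were 2 and 5 for ectoderm, 3 and 3 for endoderm and 0 and 5 for mesoderm against hPSC, 2 and 5 for ectoderm against endoderm, 3 and 1 for ectoderm against mesoderm, and 4 and 1 for endoderm against mesoderm. With transcripts listed by position included, 50 were tested, 17 were higher in ectoderm and 4 in mesoderm than in hPSC, and 6 lower in endoderm than in mesoderm. Without the filter all 103 were tested, 6 were higher in mesoderm than in hPSC, 25 higher in ectoderm than in endoderm, 19 higher and 7 lower in ectoderm than in mesoderm, 5 lower in endoderm than in mesoderm, and transcript choice was called in 2 for ectoderm. With spliced transcripts only, an alternative chosen after seeing the data, 7 were lower in ectoderm than in hPSC. With only the 4 libraries compared, 7 were lower than hPSC in ectoderm, 7 in mesoderm, and 6 lower in ectoderm than in mesoderm. Where fewer or more genes were tested the numbers changed by construction, and elsewhere the cause was not tested.

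Members' share of counts became 0.0871% for hPSC, 0.0553% for ectoderm, 0.0797% for endoderm and 0.0413% for mesoderm with matching transcripts only, 0.198%, 0.246% and 0.132% for hPSC, ectoderm and mesoderm with positional transcripts, and 0.203%, 0.219%, 0.169% and 0.122% in the same order of the 4 groups with a limit of 10 counts. RLE scaling, run for the numbers of called members, moved none of those by over 1.5 times.

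Leaving out each library gave 7 to 11 higher and 7 to 13 lower for ectoderm against hPSC, 6 to 7 and 2 to 10 for endoderm, and 1 to 3 and 7 to 12 for mesoderm. It gave 10 to 18 and 12 to 14 for ectoderm against endoderm, 6 to 15 and 1 to 5 for ectoderm against mesoderm, and 12 to 14 and 2 to 5 for endoderm against mesoderm. Transcript choice was called in 0 to 1 member for ectoderm (LINC00467 or LINC00678), 0 to 1 for endoderm (LINC00665) and 0 for mesoderm. The shares ranged over 0.185% to 0.190%, 0.198% to 0.200%, 0.148% to 0.158% and 0.103% to 0.114%. Where 1 library of a group remained, it was assumed to vary like the other groups. The filter on low counts then asked for fewer libraries, and 7 to 10 members instead of 6 were tested for transcript choice. The ranges above include this change of the tested set, and its part in them was not tested.

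With the repeat number as a replicate block, ectoderm had 8 members higher and 9 lower than hPSC, endoderm 7 and 6, mesoderm 1 and 10. Deviations of same-numbered libraries correlated at -0.0341 to 0.151, and the block was not used further. The labels do not say whether same-numbered libraries were made together, and these values cannot settle it. Of 98 calls of members named or listed by pattern, 1472 values under alternatives held the call in 1307, lost it in 165 and reversed it in 0. A median of 42 counts per member limits what could be tested.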
